A study of Mus musculus with 29 samples.

Results

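The 3 genes of the mouse Pou4f family, Pou4f1, Pou4f2 and Pou4f3, were examined as targets in 9 lists of ChIP-seq peaks for Atoh1, Pou4f3 and Gfi1. ChIP-seq sequences the DNA fragments that come down with a protein and so locates where that protein sat on the genome. A peak is a stretch where fragments pile up over the input control, and its summit is the position with the most fragments. Members were the summits kept in the deposited summit lists that lay in the body of 1 of the 3 genes or within 100 kb of it in build mm9. There were 93 such summits of 175162 in all 9 lists, with 26 at Pou4f1, 16 at Pou4f2 and 51 at Pou4f3. A further 9 summits over the coding exons of Pou4f3 were set apart, because those exons are also present in the inserted gene of most lines. Summits whose 300 bp windows shared at least 1 bp were joined into 1 site, which gave 38 sites, 23 of them found in 2 or more lists.

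All lines came from the mouse embryonic stem cell line A2loxCre and carried a doxycycline-inducible cassette that ended in a Venus reporter. They were grown as embryoid bodies, aggregates of differentiating stem cells, and collected on day 6, with doxycycline (2 µg/ml) present for the last 48 h. The cassette held Atoh1 in iAtoh1, Pou4f3 in iPou4f3, Gfi1 with Atoh1 in iG+A, Gfi1 with Pou4f3 in iG+P, Pou4f3 with Atoh1 in iP+A, and all 3 factors in iGPA. A FLAG tag served to precipitate Atoh1 in iAtoh1, iGPA, iG+A and iP+A, and a MYC tag served for Pou4f3 in iPou4f3, iGPA, iG+P and iP+A. Gfi1 was precipitated in iGPA with an antibody to the protein. The Gfi1 group had 1 library, the other ChIP groups had 2 each, and each of the 6 lines had 2 input libraries. The tags mean that the lists show the induced copies of Atoh1 and Pou4f3 and not the proteins made from the cells' own genes. Embryoid bodies are not hair cells and hold cells of several kinds. Peaks were called on merged replicates, so no value below has a spread between replicates, no test across libraries could be made, and lists of 1 line share their input.

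Pou4f proteins, also known as Brn3 proteins, are transcription factors that bind AT-rich DNA through a POU-specific domain and a POU homeodomain. Pou4f1 (Brn3a) is known for its role in sensory neurons, Pou4f2 (Brn3b) in retinal ganglion cells and Pou4f3 (Brn3c) in the survival and maturation of the hair cells of the inner ear. Family members are known to act on their own genes and on one another's. Atoh1 is the bHLH factor that starts hair cell development and binds E-boxes, and Gfi1 is a zinc finger repressor needed for hair cell survival.

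Sequences are shown for the sites at Pou4f1 and Pou4f2 that recurred in all 4 lists of a factor, and for the stronger Gfi1 site at Pou4f2, since these carry the results for the family's other genes. Each run is the coding strand of the gene, 5′ to 3′, with 75 bases on each side of the strongest summit, from build NCBIM37 (mm9). Capitals mark the patterns searched on both strands, which were ATAATTAAT with at most 1 mismatch for Pou4f, CAGCTG or CAGATG for the E-box, and AATCACTGC or AATCACAGC for Gfi1. The first site lies just upstream of the Pou4f1 start (chr14:104867253-104867403, Atoh1 summits) and the second farther upstream (chr14:104872639-104872789, around the Gfi1 summit of a site that also had Pou4f3 and Atoh1 summits). The next lies downstream of Pou4f1 (chr14:104860207-104860357, Pou4f3 summits). The last pair lies downstream (chr8:80951830-80951980, Pou4f3 summits) and upstream (chr8:80962195-80962345, Gfi1 summit) of Pou4f2.
Pou4f1 promoter: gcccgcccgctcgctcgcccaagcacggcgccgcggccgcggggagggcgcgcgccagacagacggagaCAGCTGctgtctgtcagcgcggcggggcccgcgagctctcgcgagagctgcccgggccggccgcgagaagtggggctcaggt
Pou4f1 upstream: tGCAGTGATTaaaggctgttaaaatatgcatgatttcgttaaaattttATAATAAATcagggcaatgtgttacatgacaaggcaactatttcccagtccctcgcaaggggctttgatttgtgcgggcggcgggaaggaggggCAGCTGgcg
Pou4f1 downstream: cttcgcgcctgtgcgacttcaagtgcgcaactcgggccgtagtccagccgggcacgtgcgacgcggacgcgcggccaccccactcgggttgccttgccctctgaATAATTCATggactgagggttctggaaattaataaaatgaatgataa
Pou4f2 downstream: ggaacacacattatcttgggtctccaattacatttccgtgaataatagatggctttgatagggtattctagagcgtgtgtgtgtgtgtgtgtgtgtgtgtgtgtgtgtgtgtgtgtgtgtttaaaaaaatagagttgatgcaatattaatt
Pou4f2 upstream: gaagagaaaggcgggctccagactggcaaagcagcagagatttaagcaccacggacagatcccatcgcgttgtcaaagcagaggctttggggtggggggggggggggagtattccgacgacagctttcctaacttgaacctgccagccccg

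The Pou4f1 promoter sequence held a palindromic E-box CAGCTG, whose centre was 3.5 bases from the iGPA Atoh1 summit. The upstream Pou4f1 sequence held all 3 patterns within 151 bases, with a Pou4f pattern that has 1 mismatch, an E-box, and a Gfi1 pattern on the opposite strand. The downstream Pou4f1 sequence held a Pou4f pattern with 1 mismatch, ATAATTCAT, centred 33 bases from the summit. Neither Pou4f2 sequence held any of the letters searched, and the downstream one contained a long run of repeated tg. The GC content was 78.8% in the Pou4f1 promoter sequence, 45.7% in the upstream and 57.0% in the downstream Pou4f1 sequence, 37.7% in the downstream Pou4f2 sequence and 58.9% in the upstream one.

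Most genes had an Atoh1 and a Pou4f3 summit within 100 kb, whereas fewer had a Gfi1 summit. In the iAtoh1 list 2 of the 3 genes had at least 1 kept summit, against 67.7% of 22350 protein-coding genes. All 3 genes had one in the other Atoh1 lists, against 81.8% of genes in iGPA, 77.9% in iG+A and 75.7% in iP+A. All 3 also had one in each Pou4f3 list, against 84.1% of genes in iPou4f3, 78.5% in iGPA, 88.1% in iG+P and 74.3% in iP+A. In the Gfi1 list 2 of the 3 genes had one, against 34.2% of genes, a share that includes summits in coding exons. Pou4f3, the gene without one, had a kept Gfi1 summit only in coding exon 2, which was set apart. The number of summits differed among the 3 genes. Pou4f3 had 40 summits in the 4 Pou4f3 lists together, where the median gene had 10 and 1.99% of genes had at least as many. The 40 include 3 summits in intron 1 whose peaks also cover coding exon 1, so they may hold signal from the inserted copy. Pou4f1 had 14, a count reached by 34.6% of genes, and Pou4f2 had 11, reached by 47.0%. In the 4 Atoh1 lists Pou4f1 and Pou4f3 had 11 summits each, reached by 43.8% of genes, and Pou4f2 had 3, reached by 78.1%.

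**Figure D1:**
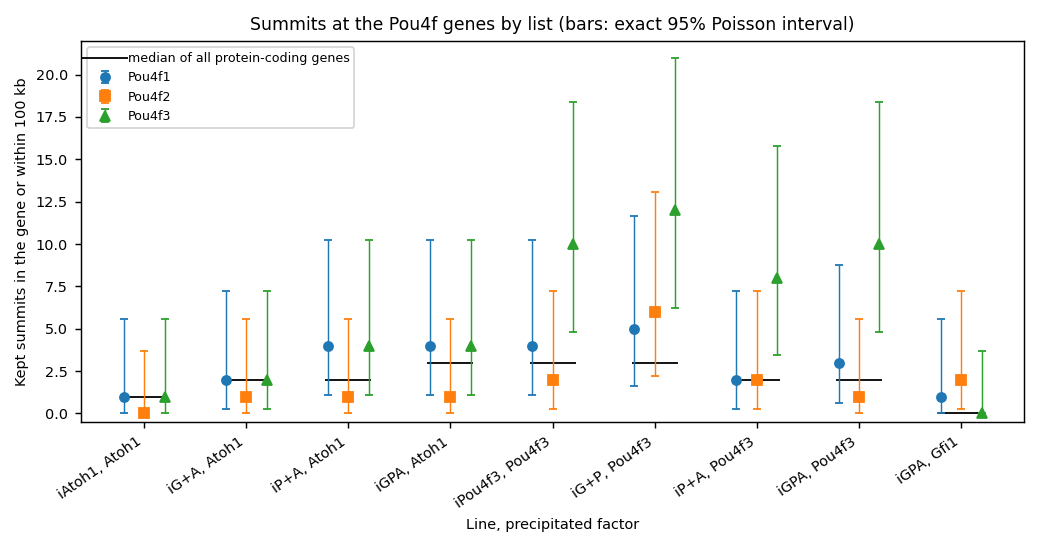
Kept summits in each gene or within 100 kb (y axis) in each of the 9 lists (x axis), without the coding exon summits of Pou4f3, with exact 95% Poisson intervals that cover counting error only, and the median of all protein-coding genes as a dash. Pou4f3 stands at 8 to 12 summits in the 4 Pou4f3 lists, where the median gene has 2 or 3, while its Atoh1 counts and the counts of the other 2 genes lie nearer the dash.

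Split by list, Pou4f3 had 10 summits in the iPou4f3 list (exact 95% Poisson interval 4.80 to 18.4), 12 in the longer iG+P list (6.20 to 21.0), 10 in iGPA (4.80 to 18.4) and 8 in iP+A (3.45 to 15.8). The intervals overlap throughout, and the lists differ in length, from 17082 peaks in iP+A to 32632 in iG+P. Many of the sites counted are the same in several lists, so the overlap does not test whether the lines differ. At least as many summits as Pou4f3 had were found at 3.17% of genes in iPou4f3, 0.989% in iGPA, 3.64% in iG+P and 2.78% in iP+A. These counts belong to a 200 kb neighbourhood and not to the gene alone. For every gene the window was the gene body with 100 kb on each side, so longer genes had more sequence counted. Of the 51 summits at Pou4f3, 25 lay closer to the start of another protein-coding gene, mostly the predicted gene Gm16415, whose start is 46.4 kb downstream, so 26 remained by nearest start.

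**Figure D2:**
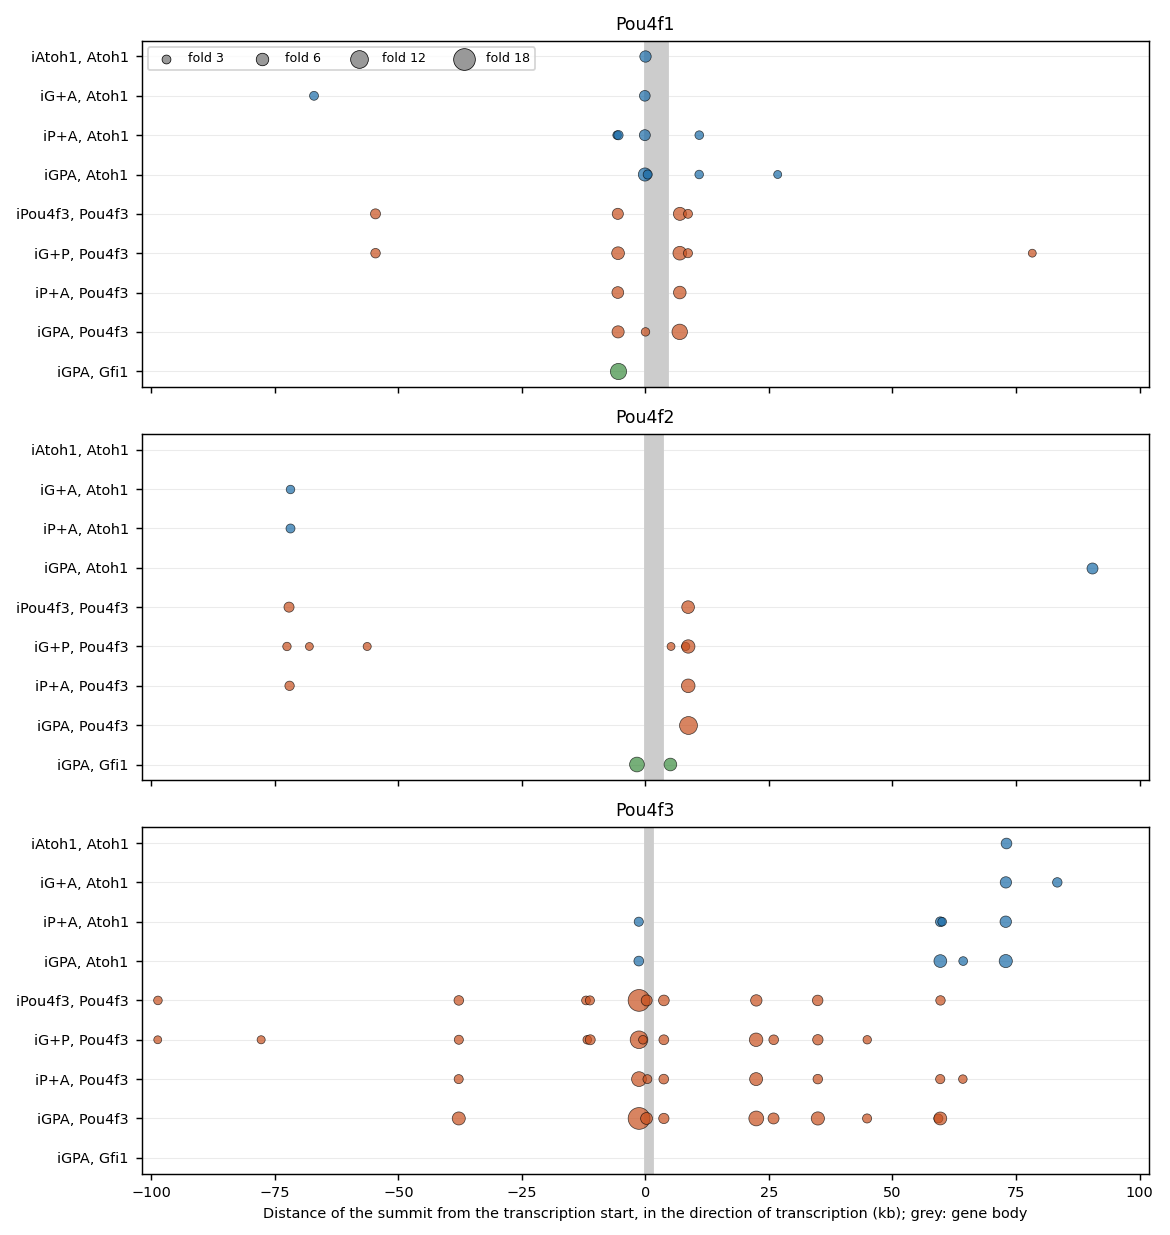
Every kept summit outside the Pou4f3 coding exons, by its distance from the transcription start in kb (x axis) and by list (rows), with the area of the point set by fold enrichment and the gene body in grey. Within each gene's panel, the largest points of the Pou4f3 lists lie 1.3 kb upstream of Pou4f3, 6.9 to 7.0 kb downstream of the Pou4f1 start and 8.6 to 8.7 kb downstream of the Pou4f2 start.

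Pou4f3 (ENSMUSG00000024497.2) spans 1.5 kb on the plus strand of chromosome 18, from 42554251 to 42555747, with 2 exons. The strongest site lay 1.3 kb upstream of its start, with Pou4f3 summits in all 4 Pou4f3 lists between 42552944 and 42552960. Fold enrichment is the authors' ratio of ChIP fragments over local background at a summit, with a small constant added to both. It was 18.2 in iPou4f3, 18.2 in iGPA, 11.9 in iG+P and 8.38 in iP+A. These were the highest values of any member summit in the 4 Pou4f3 lists, and they stood at the 98.4 to 99.4 percentile of fold within each list. The fragments recovered from the peak values were 152, 129, 108 and 73 in the same order, over a background of 6.14 to 8.14 fragments. No Pou4f pattern was found in the 250 bp around any of the summits of this site, while an E-box was found around all 6.

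Atoh1 summits stood at the same site in iP+A, with fold 3.23, and in iGPA, with fold 3.69. No peak was called there in iAtoh1 or iG+A, the lines with Atoh1 but no inserted Pou4f3. The lowest fold kept anywhere in those lists was 2.06 and 1.83, and kept peaks had at least 19 and 18 fragments. At the usual background of 7.19 and 6.49 fragments, these smallest counts give a higher fold than those minima. Enrichment weaker than that was not detectable at this depth. The second such site lay 59.7 kb downstream, where Atoh1 summits had a fold of 3.66 in iP+A and 6.28 in iGPA, and Pou4f3 summits had 3.45 in iPou4f3, 3.28 in iP+A and 6.41 in iGPA. Again no Atoh1 peak was called in iAtoh1 or iG+A, and no Pou4f3 peak in iG+P. Summits of both factors fell within 55 bp there, from 42613913 to 42613968. As at the promoter site, no Pou4f pattern was found around any of its 5 summits, and an E-box was found around all 5.

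A site 64.2 to 64.3 kb downstream had a Pou4f3 summit of fold 2.83 in iP+A and an Atoh1 summit of fold 2.95 in iGPA, with no line in which both were kept. The site 72.9 kb downstream, from 42627176 to 42627206, had Atoh1 summits only. It was in all 4 Atoh1 lists, with a fold of 4.40 in iAtoh1, 6.65 in iGPA, 4.94 in iG+A and 5.06 in iP+A. It held the highest Atoh1 fold of any member summit in iG+A and iP+A, and tied for it in iGPA. An E-box was found around all 4 of its summits and a Pou4f pattern around none.

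The other Pou4f3 sites in all 4 Pou4f3 lists lay at a distance from the promoter. At 37.8 kb upstream, fold enrichment was 3.57 in iPou4f3, 6.55 in iGPA, 3.17 in iG+P and 3.17 in iP+A. At 3.7 kb downstream of the start it was 4.40, 4.08, 3.72 and 3.62 in the same order. At 22.4 kb downstream it was 4.99, 8.45, 7.01 and 6.45, and at 34.9 kb downstream it was 4.28, 6.70, 4.16 and 3.51. In contrast to the promoter site, all 4 of these sites held a Pou4f pattern around every summit, and those at 37.8 kb upstream and 34.9 kb downstream held ATAATTAAT with no mismatch.

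Fewer lists shared the rest. Summits in iPou4f3 and iG+P only lay 98.7 kb upstream, inside Rbm27, with fold 2.85 and 2.41, 11.8 to 12.0 kb upstream with fold 2.97 and 2.85, and 11.2 kb upstream with fold 3.21 and 3.83. Summits in iG+P and iGPA only lay 25.9 kb downstream, with fold 3.61 and 4.66, and 44.9 kb downstream, with fold 2.74 and 3.20. An iG+P summit of fold 2.85 stood 519 bp upstream of the start, and the other 4 sites in 1 list had a fold of 2.52 to 3.47. No Gfi1 summit was kept outside the coding exons of Pou4f3.

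**Figure D3:**
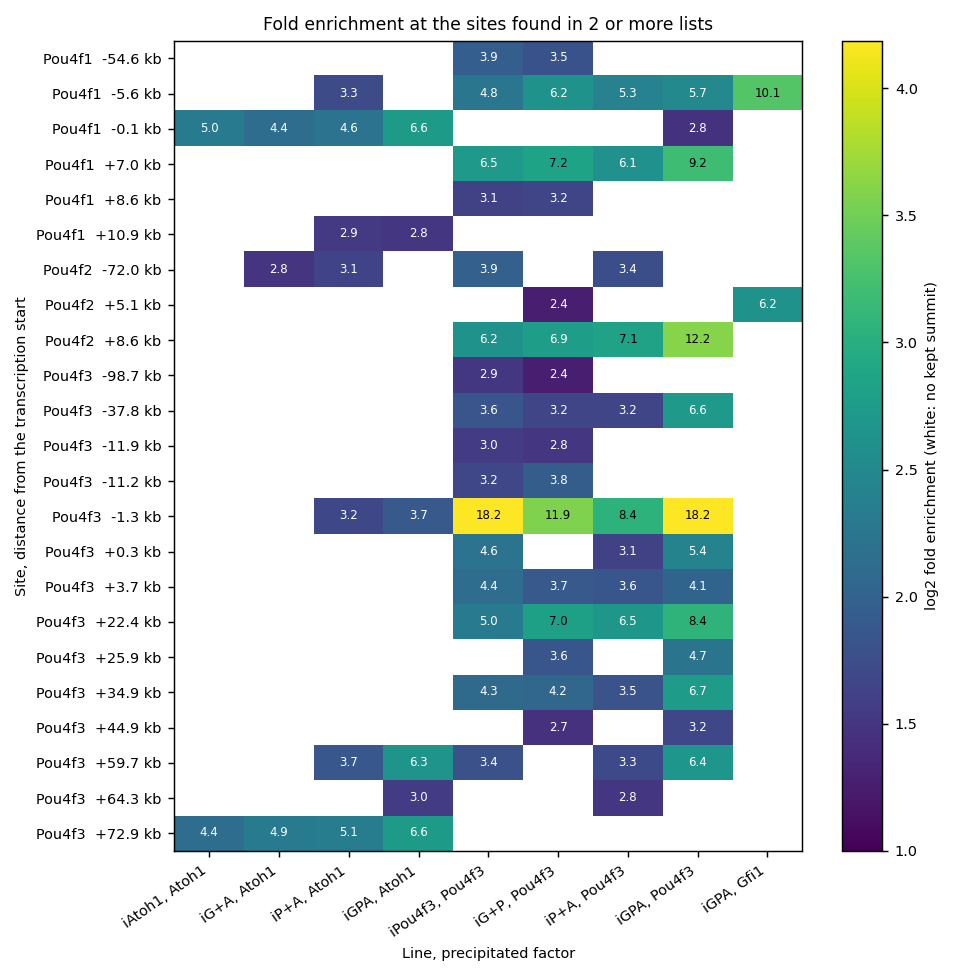
Fold enrichment, printed in each cell and coloured on a log2 scale, at the 23 sites found in 2 or more lists (rows, with the distance from the start in kb) in each of the 9 lists (columns). The row for Pou4f3 at 1.3 kb upstream has the highest values, 8.38 to 18.2 in the Pou4f3 lists, and the rows for Pou4f1 just upstream of its start and Pou4f3 at 72.9 kb downstream are filled in all 4 Atoh1 columns.

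In the lines with an inserted Pou4f3, signal over the coding exons could not be assigned to 1 copy of the gene. Reads from the coding sequence in the cassette align to the coding exons, since the insert is not part of the genome build. Over these exons 9 summits were kept, from 8 of the 9 lists, and in the iPou4f3 list a peak of fold 2.44 was called but not kept. In lists from lines with an inserted Pou4f3, fold enrichment over coding exon 2 was 3.94 in iG+P and 6.79 in iP+A for Pou4f3, 3.74 in iGPA for Pou4f3, 3.12 in iP+A and 4.43 in iGPA for Atoh1, and 4.51 in iGPA for Gfi1. These 6 peaks were 416 to 845 bp wide, and at least 98.5% of each lay within the 894 bp of coding exon 2.

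The lines without inserted Pou4f3 also had a summit there. The Atoh1 fold was 2.69 in iAtoh1, in a peak of 191 bp, and 3.07 in iG+A, in a peak of 175 bp. These peaks were narrower than the 6 kept peaks of exon 2 from lines with the insert. However, the exon 2 peak called but not kept in iPou4f3, a line with the insert, was 172 bp wide. Near the start, the iG+P Pou4f3 summit with fold 4.27 fell in coding exon 1, and summits in intron 1 had a fold of 4.64 in iPou4f3, 3.06 in iP+A and 5.39 in iGPA. An intron is not in the inserted coding sequence, but each of these 3 peaks also covered the 120 bp of coding exon 1. In the lines with inserted Pou4f3, the share of the inserted copy cannot be told apart from binding at the native gene. The iAtoh1 and iG+A lines carry no inserted Pou4f3.

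**Figure D4:**
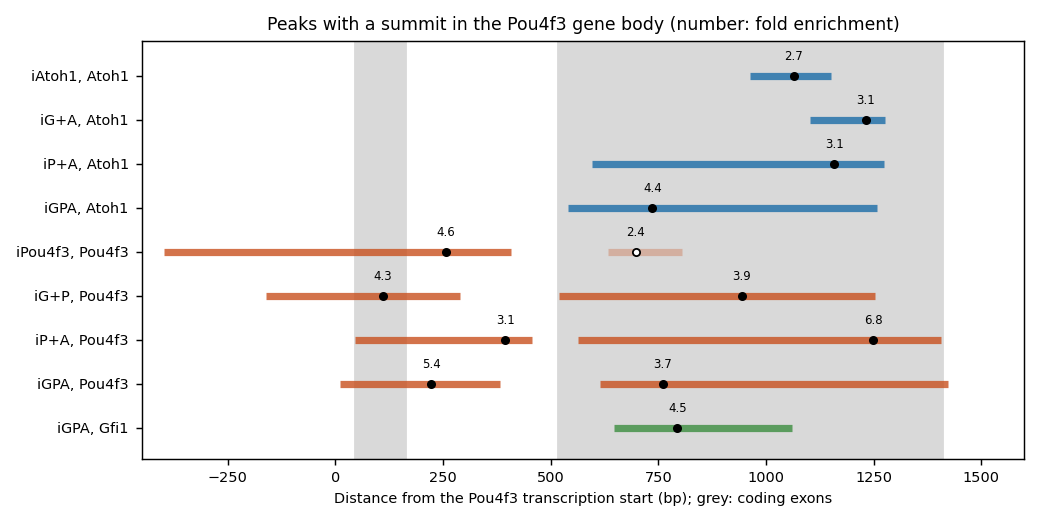
Peaks with a summit in the Pou4f3 gene body, drawn as bars from peak start to peak end along the distance from the transcription start in bp (x axis), 1 row per list, with summits as points, fold enrichment as numbers and coding exons in grey. The iPou4f3 peak that was called but not kept is pale with an open point and spans 172 bp. The kept exon 2 peaks from lines with inserted Pou4f3 are 416 to 845 bp wide, while those in iAtoh1 and iG+A span 191 and 175 bp.

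Pou4f1 (ENSMUSG00000048349.6) lies on the minus strand of chromosome 14, from 104862737 to 104867216. Atoh1 was found at its promoter in all 4 Atoh1 lists, 112 to 128 bp upstream of the start, at the E-box shown above. Fold enrichment was 5.01 in iAtoh1, 6.65 in iGPA, 4.41 in iG+A and 4.63 in iP+A, at the 82.8 to 91.1 percentile of fold within each list. The iAtoh1 value was the highest of any member summit in that list. A Pou4f3 summit in iGPA joined this site, 11 bp downstream of the start in the first exon, with fold 2.77 and 18 fragments, close to the lowest number kept in that list, 17. A further iGPA Atoh1 summit of fold 3.20 lay in intron 1, 460 bp from the start.

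Pou4f3 was found on either side of Pou4f1 in all 4 Pou4f3 lists. Downstream, 6.93 to 6.98 kb from the start and beyond the gene's end, fold enrichment was 6.54 in iPou4f3, 9.17 in iGPA, 7.22 in iG+P and 6.11 in iP+A, at the 91.2 to 96.2 percentile. Upstream, 5.54 to 5.60 kb from the start, it was 4.75, 5.68, 6.24 and 5.32 in the same order. This upstream site also held the highest Gfi1 fold of any member summit, 10.1, from 45 fragments over a background of 3.55. Atoh1 stood there in iP+A only, with a summit of fold 2.80 at 5.74 kb and another of fold 3.33 at 5.46 kb upstream. Outside the coding exons of Pou4f3, it was the 1 site with summits of all 3 factors, though Atoh1 and Gfi1 came from different lines. Over coding exon 2 of Pou4f3, which was set apart, all 3 factors had a kept summit in iGPA. At the upstream Pou4f1 site, a Pou4f pattern was found around all 7 summits, a Gfi1 pattern around 6 and an E-box around 4.

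The remaining shared sites at Pou4f1 were weaker. Pou4f3 summits at 8.60 to 8.61 kb downstream had a fold of 3.09 in iPou4f3 and 3.17 in iG+P. Atoh1 summits at 10.9 kb downstream had a fold of 2.90 in iP+A and 2.83 in iGPA, with no peak called in iAtoh1 or iG+A and no Pou4f3 summit at the site. A pair of Pou4f3 summits 54.6 kb upstream, with fold 3.86 in iPou4f3 and 3.50 in iG+P, lay 26 and 36 bp from the start of Rnf219. The 4 sites at Pou4f1 in 1 list each had a fold of 2.41 to 3.20.

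Pou4f2 (ENSMUSG00000031688.1) lies on the minus strand of chromosome 8, from 80956908 to 80960551, and no summit fell in its body or within 1 kb of its start. Pou4f3 was found 8.63 to 8.66 kb downstream of the start in all 4 Pou4f3 lists. Fold enrichment was 6.18 in iPou4f3, 12.2 in iGPA, 6.90 in iG+P and 7.13 in iP+A, at the 90.0 to 97.3 percentile. The 4 summits fell within 30 bp. As at the promoter site of Pou4f3, no Pou4f pattern was found around them.

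Gfi1 flanked Pou4f2, 1719 bp upstream with fold 8.36 and 5050 bp downstream of the start with fold 6.18, from 37 and 29 fragments. The upstream summit had no other factor. The downstream one was joined by an iG+P Pou4f3 summit 130 bp away with fold 2.41. A count of 2 Gfi1 summits was reached by 11.2% of genes, and the Gfi1 list rests on 1 library. Atoh1 had no summit within 70 kb of the start of Pou4f2. Its nearest summits, in iG+A with fold 2.80 and iP+A with fold 3.12, lay 71.9 kb upstream, 389 and 421 bp from the start of Rbmxrt. Pou4f3 summits of fold 3.92 in iPou4f3 and 3.40 in iP+A belonged to the same site. On the other side, an iGPA Atoh1 summit of fold 4.68 lay 90.3 kb downstream, inside Ttc29. Apart from the Gfi1 and Atoh1 sites named, the sites of Pou4f2 in 1 list were 4 iG+P Pou4f3 sites.

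Across the 3 genes, 8 sites were in all 4 Pou4f3 lists, 5 at Pou4f3, 2 at Pou4f1 and 1 at Pou4f2. At least 1 such site was found at 52.2% of protein-coding genes and at least 5 at 1.19%. The iGPA list had the highest fold at 6 of the 8 sites, as it had at 64.8% of the 7026 such sites on chromosomes 1 to 19 and X. It had the highest percentile within its own list at 1 of the 8, so the order of the lines depends on which of these values is read. All 4 Pou4f3 summits had a Pou4f pattern at 6 of the 8 sites, against 56.2% of 7025 sites.

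Sites in all 4 Atoh1 lists numbered 2, at Pou4f1 and Pou4f3, and 45.1% of genes had at least 1. Sites with an Atoh1 and a Pou4f3 summit in iGPA numbered 3, of which 2 were at Pou4f3 and 1 at Pou4f1, and 36.4% of genes had at least 1. Atoh1 stood in both iP+A and iGPA at 5 sites. At 3 of them, 2 at Pou4f3 and 1 at Pou4f1, no Atoh1 summit was in iAtoh1 or iG+A, against 32.5% of 10904 such sites in the genome. At 2 of those 3, Pou4f3 was also bound in iPou4f3, against 29.3% of 3542.

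A Pou4f pattern was found around 37 of the 65 member summits of the Pou4f3 lists, or 56.9%, against 40.04% to 54.6% over all kept summits of these lists. With no mismatch it was found around 9, or 13.8%, against 7.18% to 9.91%. An E-box was found around 18 of the 25 member summits of the Atoh1 lists, or 72.0%, against 60.0% to 72.9%. A Gfi1 pattern was found around 1 of the 3 member summits of the Gfi1 list, at Pou4f1, against 6.90% of all its summits. Patterns of the other factors were also counted. A Pou4f pattern was found around 5 of the 25 Atoh1 summits, or 20.0%, against 3.91% to 10.4%. An E-box was found around 25 of the 65 Pou4f3 summits, or 38.5%, against 23.2% to 31.3%, and a Gfi1 pattern around 4, or 6.15%, against 0.546% to 0.586%, all 4 of them at the upstream Pou4f1 site. Summits of 1 site share their sequence, so these counts are not independent.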

How the data were processed

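Per the study's methods and the submitters' processing notes, the authors trimmed reads (Trimmomatic), aligned them to mm9 (Bowtie2), removed duplicates (Picard), low mapping quality (SAMtools) and blacklisted regions (bedtools), and called peaks (MACS2) on merged replicates against merged inputs. The deposited fold enrichment is a ratio of ChIP fragments to local background at the summit, with a small constant added to both. The −log10 p of each summit was deposited as the peak caller gave it. The deposited summit lists carry a signal column with no stated definition and drop some called peaks by a filter not given in the sources used here. The signal was not used. Members and lists were chosen with earlier results of these data known.

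Groups came from sample titles, and lists were matched to them by name. Summit positions were compared with genes of GENCODE vM1 on NCBIM37, the same assembly as mm9. Fold was read as fragments plus 1 over background plus 1, so it is lower than the plain ratio of the 2 counts. Fragments and background were recovered by inverting fold and −log10 p within a tolerance of 0.001, which succeeded for at least 98.4% of peaks. The background met most often was 5.87 to 8.30 fragments, but 3.55 for Gfi1, a stand-in for depth, since total reads were not used here. A second list of other genes is not reported here. Only Pou4f3 had its coding exon summits left out of the counts per gene. No test was made, and intervals cover counting error only. Named sites were those in 2 or more lists, those within 1 kb of the start or in the gene, and the summit of highest fold in each list. Work was done in Python 3.11.15 with pandas 2.3.3, numpy 2.4.6 and scipy 1.17.1, and was tested on simulated data.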

Additional observations from a re-analysis of the deposited data

Results flagged for a closer look

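At the 3 genes, 5 called peaks outside the Pou4f3 coding exons were absent from the summit lists and entered no count of the report. Of these, 4 fell on 1 spot 83.3 to 83.4 kb downstream of the Pou4f3 start, with a fold of 2.54 in iAtoh1, 3.23 in iP+A and 2.83 in iGPA for Atoh1 and 2.45 in iP+A for Pou4f3. The iG+A Atoh1 peak at that spot, with fold 3.47, was kept. The fifth was an iGPA Atoh1 peak of fold 2.70 at the start of Rbmxrt, 72.2 kb upstream of Pou4f2. The filter that removed them is not given in the sources used here.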

How the results depend on the processing

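No paired analysis was possible because the lists were called on merged replicates, and for the same reason no library could be left out. With a −log10 p of at least 10, summits fell from 26 to 14 at Pou4f1, from 16 to 8 at Pou4f2 and from 51 to 28 at Pou4f3, sites in 2 or more lists fell from 6 to 3, from 3 to 1 and from 14 to 8, sites with Atoh1 and Pou4f3 in iGPA fell from 3 to 1, and lists with a coding exon summit fell from 8 to 4. With windows of 100 bp around summits, sites with Atoh1 and Pou4f3 in iGPA fell from 3 to 2, and with 1000 bp they stayed at 3. Within 50 kb Pou4f2 had 8 summits, and within 250 kb it had 33 summits and 8 sites in 2 or more lists. By nearest start, Pou4f2 had 8 summits, and Pou4f3 had 26 summits and 7 sites in 2 or more lists. With no mismatch, the Pou4f pattern was found around 13.8% of the 65 summits in place of 56.9%. The number of sites in all 4 Pou4f3 lists stayed between 6 and 11 under every setting tried. It was 9 when coding exon summits were included, a setting chosen after seeing the data. Fold enrichment near the detection limit rests on about 20 fragments, and a site missing from a list may lie below that limit.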

Other observations

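Among 11 other POU genes, 11 had a kept summit within 100 kb in the iG+P Pou4f3 list, 10 in iPou4f3, 10 in iGPA and 8 in iP+A, where the shares over all genes were 88.1%, 84.1%, 78.5% and 74.3%. In the Atoh1 lists 6 had one in iAtoh1, 8 in iGPA, 7 in iG+A and 7 in iP+A, where the shares were 67.7%, 81.8%, 77.9% and 75.7%. The Gfi1 list had one at 1 of them, where the share was 34.2%. The median number of summits at the POU genes was above that of all genes in 3 Pou4f3 lists, with 4 against 3 in iPou4f3, 5 against 3 in iG+P and 4 against 2 in iGPA, and equal to it in iP+A, at 2. In the Atoh1 lists it was 1 against 2 in iG+A and in iP+A, and it equalled that of all genes in iAtoh1, at 1, and in iGPA, at 3.

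Over the 9 lists, the genes whose summit counts were most like those of Pou4f1 by cosine similarity were Dnase2b and Ssx2ip (0.997 each) and Ccdc141 (0.995). They were Fgfbp3 (0.985), Evx1 (0.972) and Dimt1 (0.962) for Pou4f2, and Trim23 (0.999), Sgtb (0.995) and Prkca (0.994) for Pou4f3. Among the family, the similarity was 0.904 between Pou4f1 and Pou4f3, 0.841 between Pou4f2 and Pou4f3 and 0.824 between Pou4f1 and Pou4f2. These are descriptions over 9 points that share inputs and cells. Cosine similarity reads how summits split among the lists and not how many there are. Trim23 had 26 summits against 51 at Pou4f3. Dnase2b and Ssx2ip had 36 each, and whether neighbouring genes counted the same peaks was not examined.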
